A study of Mus musculus with 35 samples.

Results

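Distal mouse chromosome 4 held 135 genes measured in bone marrow-derived macrophages (BMDMs) whose levels were compared between genotypes. These members are the Ensembl gene identifiers that start at 140 Mb or later on chromosome 4 (GRCm38, GENCODE release M21), with a mean of at least 1 FPKM over all 35 libraries. FPKM counts fragments for each kilobase of gene and corrects for the size of the library. Eno1, Mfn2, Sdhb, Isg15, Per3, Tnfrsf1b, Rpl22 and Mrpl20 lie in the same stretch and were left out, 8 genes in all. The deposited values cover 47069 identifiers, of which 11354 reached that mean and were tested. In the stretch itself, 490 identifiers remained after the 8 genes were left out, and 355 of them were under 1 FPKM, 169 of these listed at 0 in every library. Of the 135 members, 119 are protein-coding. The stretch was chosen because its genes differed between the genotypes in these same libraries, so differences between genotypes, including counts of genes past a threshold, only describe the values behind the choice and support nothing. The treatment responses did not enter the choice and were tested.

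The BMDMs came from C57BL/6 mice labelled WT or AMPKa1-/- and were grown in L929-conditioned medium. Cells of both genotypes received 1 of 6 treatments for 24 h, namely vehicle (DMSO), 100 nM of the glucocorticoid dexamethasone (Dex), 100 ng/ml of the bacterial endotoxin lipopolysaccharide (LPS), LPS + Dex, 1 µg/ml of damage-associated molecular patterns (DAMPs), or DAMPs + Dex. Each group had 3 replicates, except WT LPS with 2 (replicates 2 and 3, replicate 1 not analysed here), which gives 17 WT libraries and 18 labelled AMPKa1-/-. Their depth, read from the steps between low FPKM values, was 15837203 to 31955298 fragments (median 19973568). The labels name neither the allele behind AMPKa1-/-, nor the age or sex of the mice, nor whether libraries with the same number share a mouse. All 6 comparisons between genotypes may therefore rest on the same few mice of each genotype, and p-values measure the spread between these libraries.

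AMPK is a kinase complex that senses low cellular energy, and its α1 catalytic subunit, encoded by Prkaa1 on chromosome 15, is the main α subunit of macrophages. In bred lines, genes near one another on a chromosome are inherited together more often than distant ones, so position is one way to order genes that differ between lines. Distal chromosome 4 of the mouse carries adhesion and cytoskeletal genes, several TNF receptors, and a cluster of C2H2 zinc finger genes with near-identical copies, many of which encode DNA-binding repressors.

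Prkaa1 itself did not separate the labels. Its FPKM ranged from 8.59 to 26.1 (median 15.3) in the 17 WT libraries and from 9.05 to 24.0 (median 15.1) in the 18 libraries labelled AMPKa1-/-, and the groups overlapped in all 6 treatments. The transcript level thus went against the labels, which do not say what part of the gene was altered, and the genotype is written below as labelled. Libraries of the 2 genotypes came from different mice, so the labelled genotype and any other difference between these mice cannot be told apart. Macrophage markers were high in both, with summed medians of 3031 and 2904 FPKM, Adgre1 as the most abundant, and Csf1r at a median of 513.9 FPKM in WT and 578.2 in libraries labelled AMPKa1-/-. Xist was at most 0.0283 FPKM and Ddx3y at least 13.7 FPKM in every library, with no separation by genotype. Markers of other cells did move with genotype. The summed fibroblast markers (Col1a1, Col1a2, Col3a1, Dcn) had a median of 9.61 FPKM in WT and 3.21 in libraries labelled AMPKa1-/-, with Col1a2 at medians of 4.003 and 0.690 (the most abundant in WT) and Col1a1 at 3.26 and 0.960 (the most abundant in libraries labelled AMPKa1-/-). Dcn did not follow the collagen genes in each treatment, with medians of 3.23 and 2.92 FPKM in LPS, 2.66 and 2.80 in LPS + Dex, and 0.0598 and 0.126 in DAMPs. Replicate 2 of WT vehicle, WT DAMPs and WT LPS + Dex stood apart from the other WT libraries, with fibroblast sums of 1.40, 1.32 and 2.64 FPKM against at least 5.15 (median 9.81) in the other 14. Without these 3 libraries, an alternative chosen after seeing the data, no member past 0.5 changed the sign of its mean difference and 18 of 20 stayed past 0.5, Fblim1 being at -3.57 and Plod1 at -0.66. The sum of the neutrophil markers differed more between treatments than between genotypes, and not in one direction, although Ngp and Ltf among them did go one way. In the 4 treatments without LPS the medians of the sum were 0.944 FPKM in WT and 6.11 in libraries labelled AMPKa1-/-. In LPS the sums lay at 113.2 and 132.8 FPKM in WT and between 95.7 and 117.9 in libraries labelled AMPKa1-/-. In LPS + Dex they lay between 32.9 and 52.2 in WT and between 25.1 and 37.5 in libraries labelled AMPKa1-/-. With LPS nearly all of the sum came from Camp, an antimicrobial peptide gene of granules (medians of 122.8 and 96.5 FPKM in LPS). Mpo, Elane and Ly6g were at most 0.475 FPKM in any library. Ngp and Ltf had higher medians in libraries labelled AMPKa1-/- in each of the 6 treatments. Without LPS, in 4 treatments, Ngp medians were 0.461 FPKM in WT and 2.99 in libraries labelled AMPKa1-/-, and Ltf medians 0.293 and 1.75. Ngp in LPS was at 0 FPKM in both WT libraries and between 0.329 and 2.38 in libraries labelled AMPKa1-/-. With LPS + Dex it lay between 0.0357 and 0.0581 FPKM in WT and between 0.443 and 3.56 in libraries labelled AMPKa1-/-. B cell markers summed to medians of 0.376 and 0.316 FPKM, and T cell markers to 0.0400 and 0.0284 FPKM. The dendritic cell genes Flt3 and Zbtb46 were at most 0.444 and 0.686 FPKM in any library. The part of these cells in the differences below was not tested, and in bulk RNA fewer cells of a type cannot be told apart from less RNA per cell.

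The sequences around RefSeq starts are shown for Fblim1, Pdpn and Clstn1, the 3 lowest members of those sharing at most 40% of their sequence with other genes, and for Acot7, the highest member. Each runs from 250 bases before to 50 bases after the RefSeq start (GRCm38.p6), 5′ to 3′ on the gene's strand, with GGGCGG (the GC box) and GAGGAA (the core bound by ETS factors such as PU.1) in capitals on either strand (as CCGCCC and TTCCTC where reversed). Fblim1 (chr4:141606003-141606302, minus strand, the first of 2 RefSeq starts) held 1 GAGGAA. Pdpn (chr4:143299515-143299814, minus strand) held 2 GGGCGG, Clstn1 (chr4:149586218-149586517, plus strand) held 3 GGGCGG and 1 GAGGAA, and Acot7 (chr4:152185358-152185657, plus strand) held 2 GGGCGG. The only start listed for Acot7 lies inside the gene as GENCODE draws it, downstream of its first base at 152178134.
Fblim1: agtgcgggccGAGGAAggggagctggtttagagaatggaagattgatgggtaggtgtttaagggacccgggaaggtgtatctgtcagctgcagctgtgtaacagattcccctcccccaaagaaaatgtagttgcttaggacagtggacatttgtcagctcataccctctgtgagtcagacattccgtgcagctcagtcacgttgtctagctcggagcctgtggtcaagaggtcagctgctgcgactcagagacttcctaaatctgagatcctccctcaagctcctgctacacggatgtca
Pdpn: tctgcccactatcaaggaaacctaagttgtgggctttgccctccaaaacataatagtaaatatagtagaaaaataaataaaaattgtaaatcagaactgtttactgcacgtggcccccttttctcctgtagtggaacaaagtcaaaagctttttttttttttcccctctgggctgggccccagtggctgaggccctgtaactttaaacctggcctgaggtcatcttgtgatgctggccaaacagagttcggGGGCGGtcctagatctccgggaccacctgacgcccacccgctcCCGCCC
Clstn1: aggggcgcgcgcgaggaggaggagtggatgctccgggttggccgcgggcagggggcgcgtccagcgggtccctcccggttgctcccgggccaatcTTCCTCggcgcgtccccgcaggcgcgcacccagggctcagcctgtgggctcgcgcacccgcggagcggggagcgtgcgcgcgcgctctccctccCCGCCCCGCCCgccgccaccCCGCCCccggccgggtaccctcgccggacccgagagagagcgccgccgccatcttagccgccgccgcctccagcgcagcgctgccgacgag
Acot7: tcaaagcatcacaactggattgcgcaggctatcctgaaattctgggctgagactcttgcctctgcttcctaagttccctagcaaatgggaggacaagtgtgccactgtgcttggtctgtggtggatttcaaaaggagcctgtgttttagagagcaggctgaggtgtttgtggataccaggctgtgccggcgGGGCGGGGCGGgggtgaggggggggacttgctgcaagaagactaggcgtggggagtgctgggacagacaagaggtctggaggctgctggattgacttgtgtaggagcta
Over all 32851 RefSeq mouse promoters of this length, 35.7% held GGGCGG and 28.3% held GAGGAA on either strand. Of the 142 promoters listed for 103 of the members, 69.0% and 22.5% did. CCAAT stood in 40.1% of the members' promoters and 37.4% of all, and TATAAA in 4.93% and 13.6%. The members had to reach a mean of 1 FPKM, whereas the set of all promoters had no limit on level. Shares among the promoters of all tested genes were not computed, so none of these differences can be assigned to the stretch. None of these motifs contains another, the 2 GGGCGG of Acot7 overlap each other, as do 2 of the 3 of Clstn1, and a match describes the sequence only.

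Along the stretch, members with large differences stood between members with small ones. Values per member are the difference between genotypes on the log2(FPKM + 1) scale, labelled AMPKa1-/- minus WT, averaged over the 6 treatments. The 11 members before Fblim1, from Arhgef10l to the last one before it, lay between -0.34 and 0.13. From Fblim1 (start 141576062) to the last member, Samd11 (start 156246966), 124 members ranged from -3.73 to 0.71, and 20 of them were past 0.5 in size. Of these 15 were below -0.5 and 5 above 0.5, and 6 were past 1 in size. Of all tested genes, 3.58% were past 0.5 (2.02% below, 1.56% above) and 0.484% past 1. On chromosome 4 between 130 and 140 Mb, 2 of 115 genes were past 0.5. Lower members past 0.5 were most frequent between 147 and 148 Mb, where 5 of 9 were below -0.5, namely Zfp991, Zfp984, Zfp933, Miip and Plod1, whereas none of the 7 members between 150 and 151 Mb was. Members above 0.5 included Acot7, and Cptp and C1qtnf12, which lie close to each other. Angptl7 was at 0.60 (SE 0.19) with all libraries and at 0.34 without the 3 WT libraries that stood apart, where it had 0.552, 1.05 and 0.504 FPKM in vehicle, DAMPs and LPS + Dex, and its LPS groups were apart in the lower direction.

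**Figure D1:**
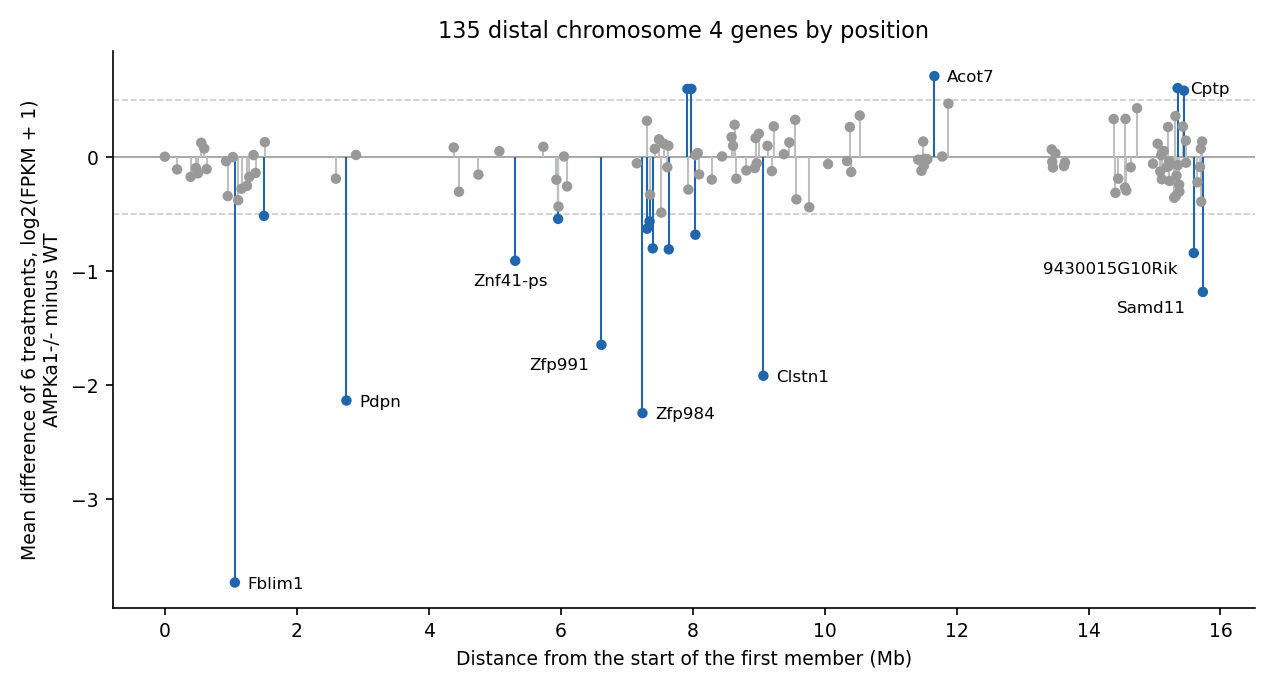
Mean difference between genotypes over 6 treatments, labelled AMPKa1-/- minus WT on the log2(FPKM + 1) scale, for the 135 members by distance in Mb from the start of the first one. Each point is a gene, blue where it is past 0.5 in size (dashed lines), and the 20 blue points lie from Fblim1 to Samd11 among grey neighbours near 0.

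In windows of 10 Mb with at least 20 tested genes, of which the genome held 205, the share of genes whose WT and labelled AMPKa1-/- libraries did not overlap in one direction in at least 4 of 6 treatments was 22.4% (15 of 67) for 150 to 160 Mb of chromosome 4, rank 1, and 15.8% (12 of 76) for 140 to 150 Mb, rank 5. These windows include genes left out of the members. Other windows came close, with 20.8% (5 of 24) on chromosome 8 and 17.0% (8 of 47) at the end of chromosome 16. By calls in any treatment except Dex, the 2 windows of distal chromosome 4 ranked 3 and 1. Large differences were also not restricted to this stretch. The largest among genes that are not members were Eno1b (-5.98), Gm6166 on chromosome 9 (4.31), Gm4735 on chromosome 2 (-3.10), Slfn8 on chromosome 11 (-2.80) and Klk1b22 on chromosome 7 (-2.69). Sizes and order depend on the pseudocount, with Eno1b at -8.22, Gm4735 at -5.63 and Klk1b22 at -5.57 for a pseudocount of 0.1. Eno1b, Gm4735, Slfn8 and Klk1b22 reached a mean of 1 FPKM through WT alone and so had to be lower. Their means in libraries labelled AMPKa1-/- were 0.158, 0.0780, 0.453 and 0.00306 FPKM. Slfn8 was apart between genotypes in only 2 of 6 treatments. Gm6166 was apart in 5, and in WT it ranged from 0.159 to 150.1 FPKM (median 1.355).

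Among the members for the cell surface and the cytoskeleton, Fblim1 (ENSMUSG00000006219, chr4:141576062-141606096), which encodes the filamin-binding adaptor migfilin of cell adhesions, had the largest difference. In vehicle it was at 103, 176.5 and 99.2 FPKM in WT and at 8.64, 9.75 and 10.5 FPKM in libraries labelled AMPKa1-/-. In LPS the WT libraries were at 12.9 and 12.5 FPKM and those labelled AMPKa1-/- at 0.253, 0.383 and 0.1395. WT Fblim1 was thus higher in every treatment with no overlap, although both genotypes were lower in LPS. The mean difference of Fblim1 was -3.73 (SE 0.12), about 13.3-fold lower on the log2(FPKM + 1) scale.

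Pdpn (chr4:143267431-143299564) encodes podoplanin, a mucin-type surface glycoprotein that binds CLEC-2. In vehicle it was at 20.6, 15.9 and 30.0 FPKM in WT and at 2.88, 4.36 and 1.21 in libraries labelled AMPKa1-/-. In LPS these were 97.0 and 93.9 in WT against 14.99, 26.9 and 11.2. The groups were apart in 5 of 6 treatments and overlapped in Dex, where WT libraries were at 3.99, 1.46 and 5.33 FPKM and those labelled AMPKa1-/- at 1.88, 1.097 and 0.146. The mean difference of Pdpn was -2.14 (SE 0.16). Clstn1 (chr4:149586468-149648899), the membrane cargo adaptor calsyntenin-1, was at 42.4, 33.5 and 42.7 FPKM in WT vehicle and at 8.77, 8.78 and 10.4 FPKM in vehicle labelled AMPKa1-/-. In LPS it was at 6.70 and 7.14 FPKM against 1.69, 1.74 and 1.19. No treatment showed overlap for Clstn1, and the mean difference was -1.92 (SE 0.07). Its 6 differences, from -2.17 to -1.65, were closer to one another than those of Pdpn, which ran from -2.85 to -1.16. None of these genes shared more than 0.07% of its 50-base stretches with other genes.

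**Figure D2:**
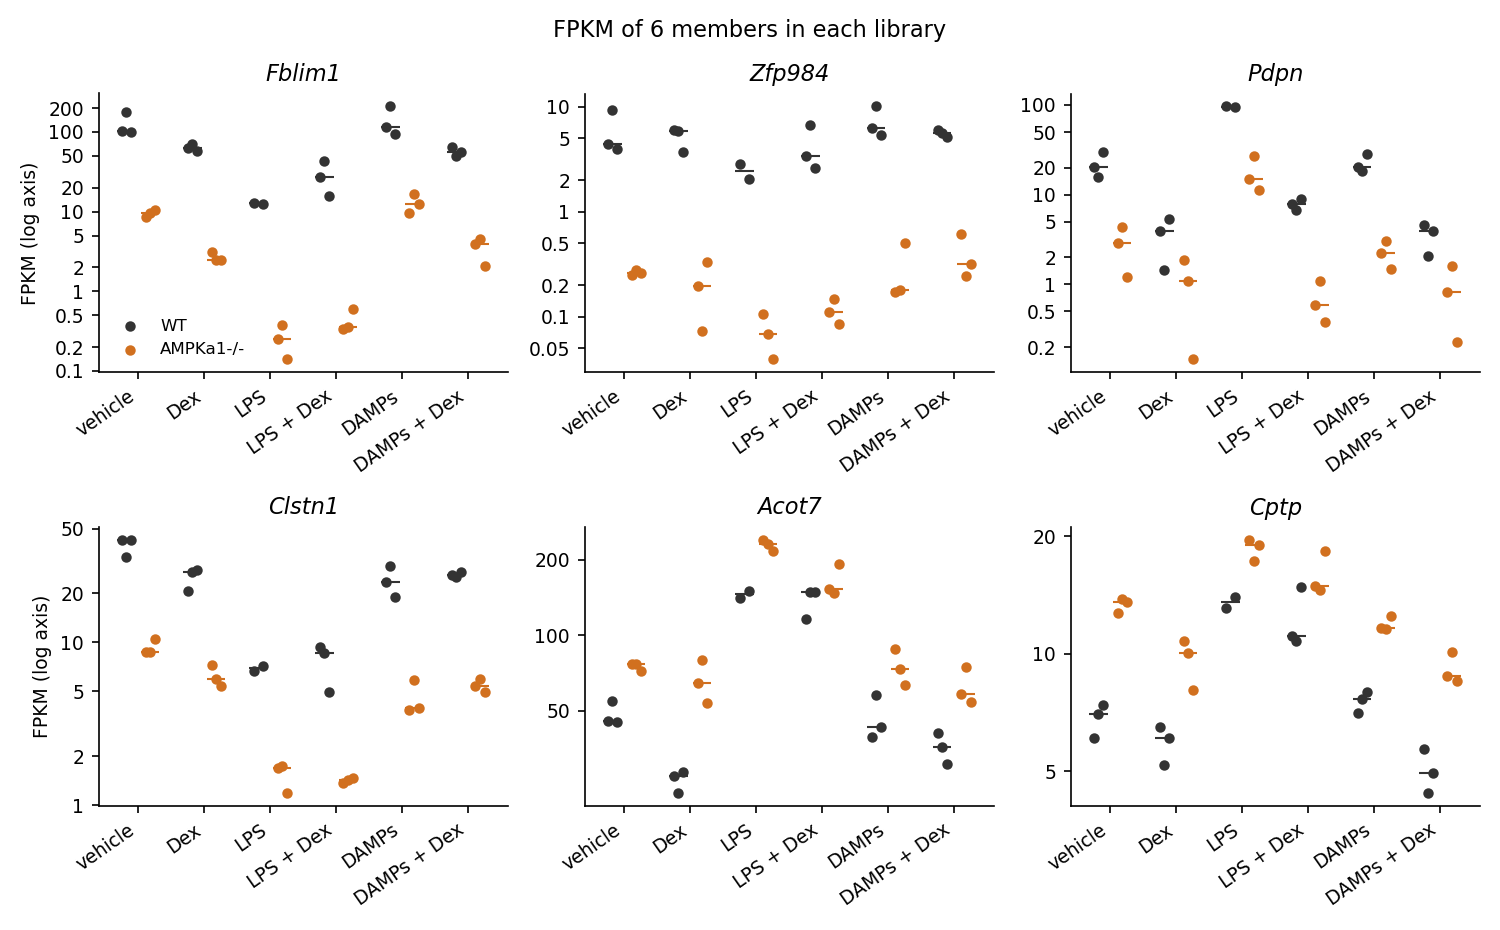
FPKM on a log axis of Fblim1, Zfp984, Pdpn, Clstn1, Acot7 and Cptp in each library, by treatment, with WT in black, AMPKa1-/- as labelled in orange and a short line at each group's median. The first 4 are lower and the last 2 mostly higher in libraries labelled AMPKa1-/-, with overlap for Pdpn in Dex and for Acot7 and Cptp in LPS + Dex.

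Zinc finger genes formed another group. Zfp984 (chr4:147753974-147809788) was at 4.43, 9.41 and 3.98 FPKM in WT vehicle and at 0.249, 0.277 and 0.259 FPKM in vehicle labelled AMPKa1-/-. Over all treatments it lay between 2.04 and 10.2 FPKM (median 5.35) in WT and between 0.0392 and 0.610 FPKM (median 0.189) in libraries labelled AMPKa1-/-. The lowest of these values corresponds to only 2.27 fragments, so the difference of -2.25 (SE 0.10), which became -4.03 with a pseudocount of 0.1, is imprecise at its lower end. Zfp991 (chr4:147132038-147180579) lay between 5.54 and 14.4 FPKM in WT and between 1.59 and 3.84 in libraries labelled AMPKa1-/-, without overlap. The pseudogene Znf41-ps, nearer to the start of the stretch, had a mean difference of -0.91 (SE 0.08; -1.49 with a pseudocount of 0.1) and no overlap within any treatment. Zfp984 and Znf41-ps reached a mean of 1 FPKM through WT alone (5.28 and 2.37 FPKM, against 0.221 and 0.747 in libraries labelled AMPKa1-/-). Zfp933, at -0.63 (SE 0.10), was apart in 3 treatments only. Other zinc finger members differed less. Gm13212, with the most C2H2 patterns (20), was at 0.05 (SE 0.09) and overlapped in every treatment. Zfp992 was at -0.20 (SE 0.04) and Zfp993 at -0.26 (SE 0.12). Counting of most of these genes is uncertain, since 87.0% of the 50-base stretches of Zfp991 recur in other genes, most often Znf41-ps, as do 89.8% of those of Znf41-ps and 57.4% of those of Zfp984, the latter most often in Gm13212. Zfp933, with 1.86%, is the exception. Of all members, 11 shared more than 40% of these stretches.

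Lower members of other kinds were in part abundant. Plod1, the lysyl hydroxylase that modifies collagen, was at 67.9, 129.2 and 69.5 FPKM in WT vehicle and at 52.2, 49.1 and 54.5 FPKM in vehicle labelled AMPKa1-/-. In LPS + Dex the WT values were 166.1, 272.7 and 130.3 against 64.1, 80.3 and 71.1. Replicate 2 was the highest WT library in both treatments, and the groups of Plod1 stayed apart in all 6. Fbxo44, a substrate receptor of ubiquitin ligases, differed by -0.81 (SE 0.10) and 9430015G10Rik by -0.84 (SE 0.07), the latter apart in all 6 treatments with WT at 4.28 to 28.7 FPKM.

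Higher members differed less in size. Acot7 (chr4:152178134-152271855), a thioesterase that releases fatty acids from acyl-CoA, was at 45.6, 54.6 and 45.3 FPKM in WT vehicle and at 76.7, 76.5 and 72.0 FPKM in vehicle labelled AMPKa1-/-. In Dex the values of Acot7 were 27.6, 23.6 and 28.6 against 64.5, 80.1 and 53.9. In LPS + Dex its groups overlapped, with WT at 115.9, 148.4 and 149.1 FPKM against 153.6, 148.0 and 193.2. Its mean difference was 0.71 (SE 0.07). Cptp, which transfers ceramide-1-phosphate between membranes, was at 6.08, 7.02 and 7.40 FPKM in WT vehicle and at 12.7, 13.8 and 13.5 FPKM in vehicle labelled AMPKa1-/-, a mean difference of 0.61 (SE 0.05) over the treatments. Vamp3, a SNARE of recycling endosomes (0.36), Kcnab2, a potassium channel β subunit (0.47), and Rer1, a Golgi retrieval receptor (0.34), were apart in all 6 treatments. C1qtnf12, a secreted protein of the C1q and TNF family, differed by 0.58 (SE 0.06), Faap20 of the Fanconi anaemia core complex by 0.43, the mitochondrial ribosomal protein gene Aurkaip1 by 0.36 and Fam213b, a prostaglandin F synthase, by 0.33. For Fam213b the groups were apart in 2 treatments only.

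The counts of members past a threshold between genotypes follow from how the stretch was chosen, and nothing is read from their excess over all genes. By treatment, members called at an adjusted p under 0.05 (limma, Benjamini-Hochberg over all tested genes) numbered 8 in vehicle, where 0.432% of all tested genes were called (13 with the replicate number as a block, where 0.731% were). Of these 2 were higher and 6 lower in libraries labelled AMPKa1-/-, against 0.229% and 0.203% of all genes. In LPS 8 members were called, against 0.766% of all genes (5 without WT LPS replicate 3, against 0.0793%), 1 higher and 7 lower (0.414% and 0.352% of all genes). LPS + Dex gave 12 members (0.669%), 2 higher and 10 lower (0.335% each). DAMPs gave 11 (0.731%), 2 higher and 9 lower (0.449% and 0.282%), and DAMPs + Dex 12 (1.06%), 4 higher and 8 lower (0.555% and 0.502%). Dex stood apart with 46 members, 17 higher and 29 lower, but there 26.5% of all genes were called, 11.0% higher and 15.5% lower. Without WT Dex replicate 2, 20 members were called in Dex, where the share of all genes called fell as well, to 2.69%, and without the replicate 2 labelled AMPKa1-/- also 20, against 2.71% of all genes. Centring of libraries on one median changed the split to 1 higher and 7 lower in vehicle and to 0 and 9 in DAMPs, and quantile normalization to 4 and 9 in DAMPs. When only the 2 groups compared were fitted, 4, 2, 2, 4 and 5 members were called in vehicle, LPS, LPS + Dex, DAMPs and DAMPs + Dex, respectively, against 0.114%, 0.0352%, 0.0617%, 0.0617% and 0.282% of all genes in the same fits.

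The separation of libraries, which uses no model, was counted as well. In vehicle the libraries of 41 members did not overlap between genotypes, against 13.9% of all genes, 20 of them lower and 21 higher in libraries labelled AMPKa1-/- (5.8% and 8.1% of all genes). In LPS, where WT had 2 libraries, 57 members did not overlap (30.2% of all genes), 38 lower and 19 higher (20.9% and 9.26%). LPS + Dex separated the fewest members, 32 (9.63% of all genes), 20 lower and 12 higher (5.3% and 4.32%). DAMPs separated 43 (11.6%), 23 lower and 20 higher (6.37% and 5.23%), and DAMPs + Dex 38 (13.3%), 21 lower and 17 higher (5.83% and 7.49%). In Dex 63 members did not overlap, which is 46.7% of them, beside 49.5% of all genes, with 38 lower and 25 higher (30.7% and 18.8% of all genes).

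Over the 6 treatments 53 members had 1 sign throughout, 34 of them lower and 19 higher in libraries labelled AMPKa1-/-, against 19.4% of all tested genes with 1 sign (11.8% lower, 7.62% higher). None of the 53 turned in its mean difference under centring or quantile normalization. WT and labelled AMPKa1-/- libraries did not overlap in any of the 6 treatments for 11 members, which compares with 0.326% of all genes (0.123% lower, 0.203% higher). The 7 lower ones were Fblim1, Znf41-ps, Zfp991, Zfp984, Plod1, Clstn1 and 9430015G10Rik, and the 4 higher ones included Vamp3, Kcnab2 and Rer1. In at least 5 treatments 20 members did not overlap, 10 lower and 10 higher, against 1.26% of all genes (0.484% and 0.775%), and in at least 4 treatments 25, 14 lower and 11 higher, against 3.46% (1.51% and 1.96%). As a description of the same values, for the average of the 6 treatments 61 members were called (22 higher, 39 lower), against 21.4% of all genes (9.07% and 12.3%). When the values of same-numbered libraries were averaged over the 5 treatments other than LPS, 75 of the 135 members kept the 3 WT numbers apart from the 3 numbers labelled AMPKa1-/-, against 29.9% of all tested genes. Fblim1 averaged 66.8, 89.5 and 54.9 FPKM for the WT numbers and 3.89, 4.48 and 3.84 FPKM for those labelled AMPKa1-/-.

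**Figure D3:**
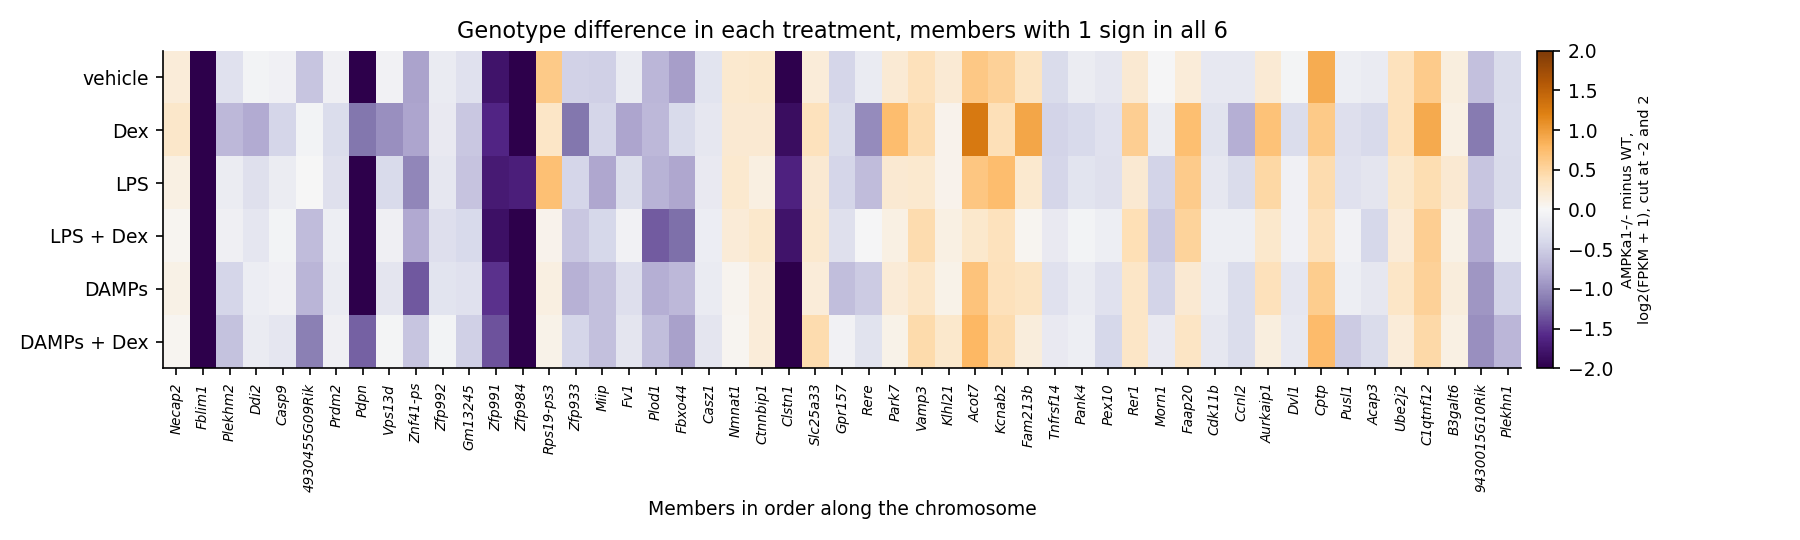
Difference between genotypes in each of 6 treatments (rows), labelled AMPKa1-/- minus WT on the log2(FPKM + 1) scale, for all but 2 of the 53 members with 1 sign in all 6, in order along the chromosome. Purple is lower, orange is higher, and colours are cut at -2 and 2, so that Fblim1 shows the darkest purple in all 6 treatments and Zfp984, Pdpn and Clstn1 in some.

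Of all tested genes, 60.3% were lower in libraries labelled AMPKa1-/- (46.5% after centring, 49.6% after quantile normalization), and 12.3% were called lower and 9.07% higher in the mean of 6 treatments, beside which the counts by role stand as a description. Grouped by role, 7 of 8 cytoskeletal and adhesion genes were lower in libraries labelled AMPKa1-/- (6 of 8 after centring), 4 of them called in the mean of 6 treatments and all 4 lower, with a median of -0.26 against -0.04 for all tested genes. Of 9 genes with at least 3 C2H2 zinc finger patterns, 8 were lower (7 after centring or quantile normalization) and 6 were called lower, of which Zfp984 and Znf41-ps passed the limit on level through WT alone and so had to be lower, which leaves 4. Among 16 genes of RNA processing and chromatin 13 were lower (10 after either scaling), 4 called lower and 1 higher. The lowest were the corepressor gene Rere (-0.44), the cyclin gene Ccnl2 (-0.36) and the transcriptional repressor gene Spen (-0.34). Of 12 genes of lysosome and membrane traffic 7 were higher (8 after centring), 5 called higher and 2 lower, with Cptp and Vamp3 above and the lysosome adaptor gene Plekhm2 (-0.38) below. In the mitochondrial and peroxisomal list 4 of 6 were higher under each scaling, 3 called higher and 2 lower, led by Acot7, Aurkaip1 and Slc25a33 (0.27, or 0.52 with a pseudocount of 0.1), a pyrimidine nucleotide carrier that passed the limit on level through libraries labelled AMPKa1-/- alone (1.52 FPKM, against 0.987 in WT).

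Metabolic genes were mixed, beside the same shares of all tested genes (12.3% called lower, 9.07% higher). Of 8 genes of NAD, folate and sugar metabolism 3 were lower and called, among them Plod1 (-0.80), an enzyme that acts on collagen and belongs to none of these pathways, and 5 were higher, of which 1 was called. Pgd, an enzyme of the pentose phosphate pathway, was at 0.28. Of 8 ubiquitin genes 1 was called lower and 1 higher, Fbxo44 and Ube2j2 (0.27) having the largest differences. The 2 TNF receptor genes above 1 FPKM were both lower, the B and T lymphocyte attenuator ligand Tnfrsf14 at -0.31 and Tnfrsf8 (CD30) at -0.15, while Tnfrsf4, Tnfrsf9, Tnfrsf18 and Tnfrsf25 stayed under 1 FPKM. Of 5 genes in the apoptosis list 2 were called lower, Miip at -0.56 and Casp9 at -0.18. Miip is named for migration and invasion, not for apoptosis. The 2 called higher were Park7 (DJ-1) at 0.26 and the DNA fragmentation factor subunit Dffa at 0.18. Of 5 kinase signalling genes 2 were called lower, with Mtor at -0.28, Cdk11b at -0.19 and Pik3cd at 0.10. In Wnt and Notch signalling, the β-catenin inhibitor gene Ctnnbip1 was at 0.21 and Dvl1 at -0.16. Padi2 (-0.17) was the only arginine deiminase gene above 1 FPKM.

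Treatment responses of the members were tested within each genotype. LPS against vehicle changed 69 members in WT, 22 up and 47 down, where 55.7% of all tested genes were called (19.9% up, 35.8% down). In cells labelled AMPKa1-/- it changed 76, 18 up and 58 down, against 64.3% of all genes (20.2% up, 44.1% down). The median of all tested genes itself moved by -0.19 in WT and by -0.30 in cells labelled AMPKa1-/-, and after centring the split became 43 up and 39 down in the latter, after quantile normalization 34 and 46. Both genotypes shared 61 called members, 59 of them in one direction. One of the exceptions was Samd11, described below.

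The largest LPS rises in WT were AW011738, Agrn, the gene of the heparan sulphate proteoglycan agrin, and Tnfrsf8. AW011738 went from 0.971, 0.547 and 0.542 FPKM in WT vehicle to 8.71 and 11.7 FPKM in WT LPS, a log2 fold change of 2.73 (SE 0.31, limma adjusted p = 1.5e-08). Agrn rose by 2.60 (SE 0.34, limma adjusted p = 2.1e-07) and Tnfrsf8 by 2.19 (SE 0.18, limma adjusted p = 5.6e-11). All 3 rose in cells labelled AMPKa1-/- too, by 3.16, 2.16 and 2.41, respectively. The largest falls were those of Fblim1 (-3.17, SE 0.31, limma adjusted p = 1.6e-09), C1qtnf12 (-3.14, SE 0.17, limma adjusted p = 5.7e-15) and Padi2, an arginine deiminase (-2.90, SE 0.25, limma adjusted p = 7.1e-11). In cells labelled AMPKa1-/- these fell by 3.08, 3.34 and 2.26. Members with large and with small genotype differences thus stood side by side among the LPS-responsive ones, AW011738 differing by -0.09 between genotypes over all treatments and Fblim1 by -3.73.

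Adding Dex to LPS changed 39 members in WT (23 up, 16 down, against 34.1% of all genes, 16.6% up and 17.5% down) and 45 in cells labelled AMPKa1-/- (22 up, 23 down, against 37.7%, 19.3% up and 18.4% down, with 29 up and 20 down after quantile normalization). Both shared 27, of which 26 moved in one direction. Pdpn fell most in WT, from 97.0 and 93.9 FPKM in LPS to 7.98, 6.70 and 8.96 FPKM in LPS + Dex (-3.45, SE 0.42, limma adjusted p = 1.8e-07), followed by AW011738 (-3.18) and Plekhn1 (-1.89). In cells labelled AMPKa1-/- Pdpn fell by 3.40, from a lower level. C1qtnf12 rose most (1.53, SE 0.17, limma adjusted p = 3.3e-08), from 4.18 and 3.03 FPKM to 10.9, 16.9 and 9.70 FPKM. Next came Acap3, which encodes a GTPase-activating protein for Arf6 (1.20), and the protease gene Ddi2 (1.13), whose call was lost without WT LPS replicate 3 (0.91, limma adjusted p = 0.063).

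**Figure D4:**
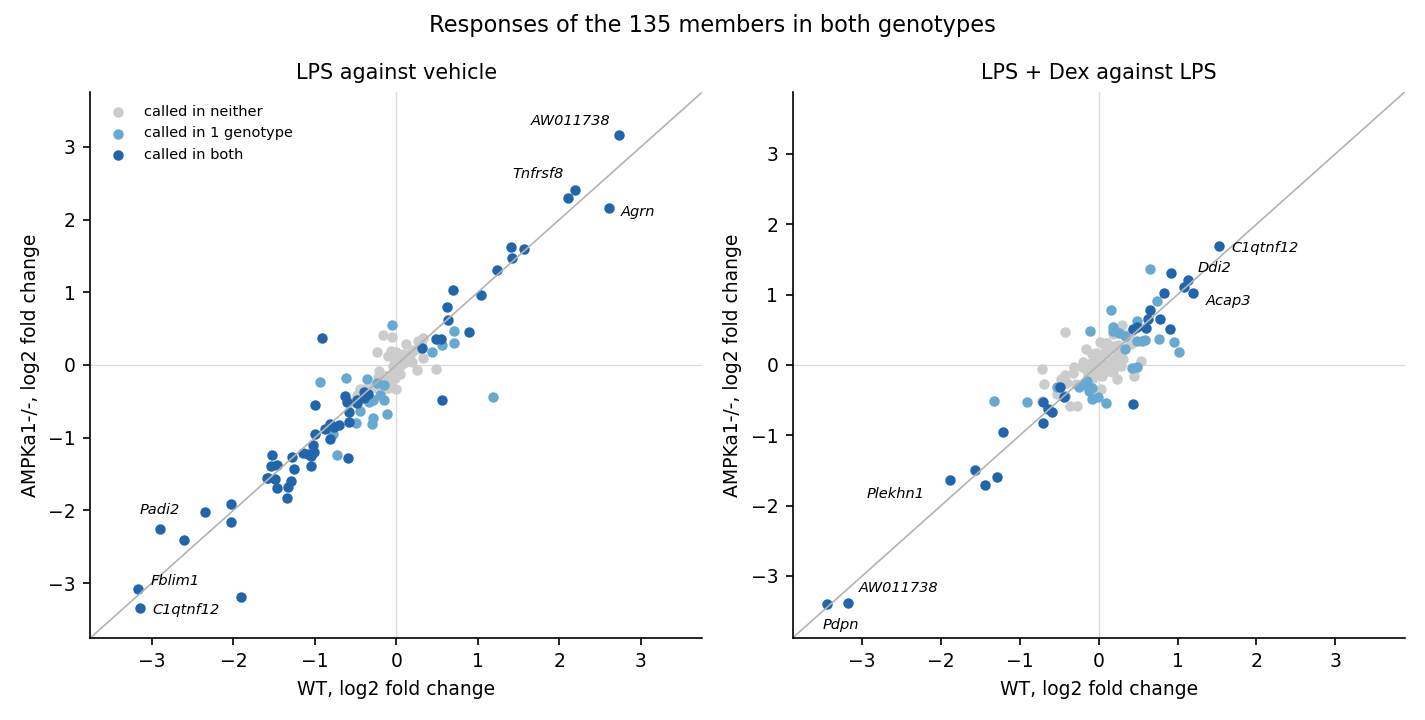
Log2 fold changes of the 135 members in WT (horizontal) and in cells labelled AMPKa1-/- (vertical) in response to LPS (against vehicle) and to Dex added to LPS (against LPS alone), with the line of equal change. Points are coloured by the number of genotypes in which the member was called, and the named genes are the 3 largest rises and falls in WT.

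Dex alone changed 39 members in WT (17 up, 22 down, against 30.9% of all genes, 15.9% up and 14.9% down) and 31 in cells labelled AMPKa1-/- (14 up, 17 down, against 27.9%, 11.9% up and 16.0% down, with 20 up and 14 down after quantile normalization), 18 of them in both and in one direction. DAMPs + Dex against DAMPs changed 29 (13 up, 16 down, against 24.3%, 11.7% up and 12.6% down) and 27 (14 up, 13 down, against 25.3%, 13.1% up and 12.2% down, with 11 up and 16 down after centring), 20 of them shared. DAMPs alone changed few genes, 4 members in WT (2 up and 2 down, against 2.01%, 1.22% up and 0.793% down) and 6 in cells labelled AMPKa1-/- (3 up and 3 down, against 4.13%, 1.89% up and 2.24% down). Nadk, the NAD kinase gene, rose in both (0.55 and 0.58), and Pgd (-0.71 and -0.50) and Clstn1 (-0.71 and -0.91) fell in both. These counts rest on single libraries, with 0 members called in WT without WT DAMPs replicate 3, 1 without WT DAMPs replicate 1 or WT vehicle replicate 1, 2 without WT vehicle replicate 3, and 2 in cells labelled AMPKa1-/- without DAMPs replicate 3 or vehicle replicate 3. With 1 library left out at a time, Nadk was called in 2 of 6 fits in WT and 4 of 6 in cells labelled AMPKa1-/-, Pgd in 5 and 3, and Clstn1 in 2 and 6.

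Whether the genotype difference changed with treatment was tested by an interaction term over all 12 groups. With all libraries and no block, 1 member, Samd11 (chr4:156246966-156255657, a sterile alpha motif gene), was called (limma adjusted p = 8.6e-05), against 0.15% of all tested genes, and 15 members had an unadjusted p under 0.05, against 8.06% of all genes. With the 6 numbered sets as a replicate block Pdpn was called too (limma adjusted p = 0.012). The test compares the same differences within treatments by which the stretch was chosen, so its result is given as a description and supports nothing. Samd11 reached a mean of 1 FPKM through WT alone (2.66 FPKM, against 0.417 in libraries labelled AMPKa1-/-, which lay between 0.0836 and 1.06 FPKM), and without the filter its limma adjusted p was 4e-05. In WT, Samd11 was at 1.76, 2.58 and 1.79 FPKM in vehicle, 4.70, 3.94 and 4.51 in Dex, and 0.434 and 0.806 in LPS. In libraries labelled AMPKa1-/- it was at 0.295, 0.441 and 0.201 FPKM in vehicle, 0.562, 0.616 and 0.470 in Dex, and 0.594, 0.477 and 1.06 in LPS. Samd11 was thus lower in libraries labelled AMPKa1-/- in 5 treatments without overlap, whereas in LPS the groups overlapped. Its differences were -1.21 in vehicle, -1.80 in Dex, 0.07 in LPS, -0.92 in LPS + Dex, -1.23 in DAMPs and -2.02 in DAMPs + Dex. LPS against vehicle moved Samd11 by -0.91 in WT (SE 0.17, limma adjusted p = 4.5e-05) and by 0.37 in cells labelled AMPKa1-/- (SE 0.15, limma adjusted p = 0.033). Its lowest library held about 5.51 fragments of the gene, and 26.1% of its 50-base stretches lie also in other genes, most often in Noc2l, which overlaps it on the opposite strand, while the sources used here do not say whether counting used strand. Next in order were Fbxo6 (limma adjusted p = 0.37) and the antisense gene 4930455G09Rik (limma adjusted p = 0.38), neither of which passed.

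**Figure D5:**
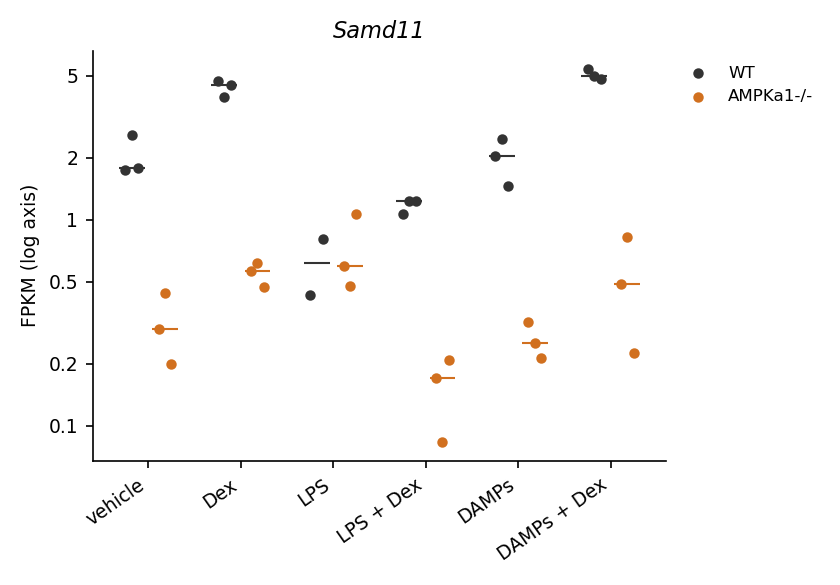
FPKM of Samd11 on a log axis in each library, by treatment, with WT in black, AMPKa1-/- as labelled in orange and a short line at each group's median. The groups are apart in 5 treatments and overlap in LPS.

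Near the limits of the rule, the 3 tested genes just before 140 Mb differed by less than 0.5 in size, Ubr4 by -0.29, Iffo2 by -0.08 and Aldh4a1 by 0.10. The first 3 members, Arhgef10l, Rcc2 and Padi2, were at 0.00, -0.11 and -0.17. At the other end, Noc2l was at 0.14 and its neighbour Samd11 at -1.18. Just above the limit on level were 1500002C15Rik (mean 1.00 FPKM) and Gm23318 (1.01 FPKM), and just under it Gm13123 (0.963 FPKM) and Espn (0.908 FPKM). A mean over all libraries lets a gene pass through 1 genotype alone, and 5 members (Znf41-ps, Zfp984, Gm23318, 1500002C15Rik and Samd11) reached 1 FPKM in WT only and 1 (Slc25a33) in libraries labelled AMPKa1-/- only. Of the 20 members past 0.5, 4 were among these, and of the 11 that did not overlap in any treatment, 2.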

How the data were processed

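The authors deposited FPKM values per gene and library, with no columns of comparisons. The submitters' processing notes name Bowtie2 2.2.3, TopHat2 2.0.12 and HTSeq 0.6.1, and the builds GRCm38 and mm10. Strand use in counting is not given in the sources used here. FPKM are not counts. Library totals read from the FPKM steps of 1 fragment on weakly expressed genes were 15837203 to 31955298 fragments, though only 55.8% to 64.2% of low genes came out whole within 0.001, so reads were not recovered. Replicates correlated at 0.967 to 0.993 (Pearson, over genes).

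Genotype by treatment groups (12) were fitted together with limma 3.58.1 in R 4.3.3 on log2(FPKM + 1), with empirical Bayes and trend, 2-sided, for 11354 genes with a mean of at least 1 FPKM, with Benjamini-Hochberg adjustment over all of them. For WT LPS (2 libraries) the spread estimated over all groups was used. The test was checked on simulated data. Symbols and positions came from GENCODE M21, promoters from RefSeq. Copies were searched as shared 50-base stretches of the longest transcript, and zinc finger patterns (at least 3 of C2H2) in transcripts translated in all forward frames, since no protein table was used.

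The members, gene lists and comparisons were chosen with earlier results of these data known. Named are the 10 lowest and 10 highest members with 1 sign in all 6 treatments, genes at the limits of the rule, the 3 largest called rises and falls for LPS against vehicle and LPS + Dex against LPS in WT, the 3 smallest interaction p, up to 3 per list, the 5 genes with the largest difference that are not members, and Prkaa1. Other genes were named after their values were seen, and 2 members that the rule or a count would name are not reported here.

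Replicate numbers were checked by correlating over genes, for 2 libraries of one number, how each departed from its group mean. Every pair was over 0.1 for vehicle and LPS (0.24, 0.124 and 0.316), vehicle and Dex (0.304, 0.217 and 0.4) and LPS and LPS + Dex (0.373, 0.375 and 0.356) labelled AMPKa1-/-, and for LPS + Dex between genotypes (0.12, 0.119 and 0.515). Between WT LPS and LPS labelled AMPKa1-/-, and between WT LPS and WT LPS + Dex, only 2 pairs exist, and both were over 0.1 (0.134 and 0.112, 0.113 and 0.429). In a group of 2 libraries the departures are equal and opposite, so these 2 pairs are not independent. The other comparisons had a pair at or under 0.1, and some pairs were clearly negative. Dex between genotypes gave -0.277, -0.339 and -0.278, and DAMPs between genotypes -0.638, 0.0648 and -0.295. DAMPs and DAMPs + Dex labelled AMPKa1-/- gave -0.494, 0.125 and -0.165. The labels do not say what a number marks. Results were recomputed with median centring, with quantile normalization, with 0.1 as pseudocount, without the filter or with 5 FPKM as the minimum, with only the groups or genotype compared, with the replicate number or the 6 numbered sets as a block, and with single libraries left out. Whole numbered sets were left out for the mean of the 6 treatments only. Leaving out 3 WT libraries of replicate 2 together was added after seeing the data.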

Additional observations from a re-analysis of the deposited data

Results flagged for a closer look

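Samd11 was singled out because its genotype difference varied with treatment by the interaction test (limma adjusted p = 8.6e-05). The gene was lower in libraries labelled AMPKa1-/- in all 3 of 3 libraries of 5 treatments and overlapped in LPS, where WT had 2 libraries. Under the alternatives in which it was tested, and with each library left out, its adjusted p stayed between 3e-05 and 0.017. Samd11 was among the members that reached 1 FPKM in WT only (mean 2.66 FPKM, against 0.417 in libraries labelled AMPKa1-/-), and its limma adjusted p was 4e-05 without that filter. The libraries labelled AMPKa1-/- lay between 0.0836 and 1.06 FPKM, near 0 on this scale, and the test compares the same differences within treatments by which the stretch was chosen, so the value is a description and no independent evidence. With the 6 numbered sets as a replicate block Pdpn passed as well (limma adjusted p = 0.012). Groups of 2 or 3 libraries were not searched for single outlying values.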

How the results depend on the processing

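Depth limits the weakest members most, since Angptl7 (1 fragment), Zfp984 (2.27), Samd11 (5.51) and Pdpn (5.63) rest on few fragments in their lowest library and Gm23318 on 0, and genotype differences share the same numbered libraries across treatments. For DAMPs against vehicle in WT, 4 members were called, 2 without a filter on low values and 2 when only the WT libraries were fitted. With a mean of at least 5 FPKM, 97 members were tested, 7 were called between genotypes in DAMPs and 0 by the limma interaction test, where 11 had an unadjusted p under 0.05 and Samd11, under 5 FPKM, was not tested. Fitting only the groups compared gave 4 members between genotypes in vehicle, 2 in LPS, 2 in LPS + Dex, 4 in DAMPs and 5 in DAMPs + Dex.

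With the replicate number as a block, 13 members were called between genotypes in vehicle, against 8 without it, and with the 6 numbered sets as a block 2 members by the interaction test, Samd11 and Pdpn. The block moved no other count by more than 1.5 times.

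Leaving out 1 library of the groups compared at a time gave 7 to 8 members between genotypes in vehicle, 20 to 44 in Dex, 5 to 8 in LPS (5 without WT LPS replicate 3), 9 to 15 in LPS + Dex, 8 to 11 in DAMPs and 9 to 13 in DAMPs + Dex. Whole numbered sets were left out as well for the mean of the 6 treatments, and for no other count. That mean gave 43 to 66 members (43 without all libraries of WT replicate 2). For treatment responses in WT the counts were 54 to 67 for LPS, 29 to 38 for Dex, 0 to 6 for DAMPs, 27 to 43 for LPS + Dex against LPS and 22 to 29 for DAMPs + Dex against DAMPs. In cells labelled AMPKa1-/- they were 71 to 74, 21 to 30, 2 to 6, 37 to 44 and 20 to 24. The limma interaction test called 1 member each time. The 0 for DAMPs in WT came without WT DAMPs replicate 3, where 14 members had an unadjusted p under 0.05. The count was 1 without WT DAMPs replicate 1 or WT vehicle replicate 1 and 2 without WT vehicle replicate 3. In cells labelled AMPKa1-/- it was 2 without DAMPs replicate 3 or vehicle replicate 3.

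Over 60 values of named genes, no direction turned under the alternatives run, and 1 call was lost, that of Ddi2. These values leave out the DAMPs responses of Nadk, Pgd and Clstn1, whose calls were lost in part of the fits, as given with them. A pseudocount of 0.1 enlarged 11 differences beyond the spread of replicates, as it does most where 1 genotype is near 0, such as Klk1b22 (-5.57), Gm4735 (-5.63), Eno1b (-8.22) and Zfp984 (-4.03), with Fblim1 at -4.41 and Pdpn at -2.73. Leaving out the 3 WT libraries of replicate 2 that stood apart, chosen after seeing the data, moved no count of calls by more than 1.5 times, and 51 of the 53 members with 1 sign kept it in all 6 treatments.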
